A study of Homo sapiens with 11 samples.

Results

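The alpha-2-macroglobulin and complement thioester family was examined in PC-3 tumours, through 7 human genes chosen by name: A2M, A2ML1, PZP, CD109, CPAMD8, C3 and C5. All 7 were listed among the 25590 genes of the RNA sequencing tables, and 5 of them (A2ML1, CD109, CPAMD8, C3 and C5) had enough counts to be tested between the groups. A2M and PZP fell below the count filter and were read from their counts alone. The RNA came from 11 tumours that had grown under the skin of male athymic nude mice (Crl:NU-Foxn1nu) from PC-3 cells in matrigel, PC-3 being a human prostate carcinoma cell line, so that all tumours share 1 line and a host without a normal T cell compartment. Of these mice, 5 had received PBS (PC3_tumor_123 to PC3_tumor_127) and 6 had received injections of A2M* (PC3_tumor_128 to PC3_tumor_132, and PC3_tumor_112), and values given tumour by tumour follow this order. A2M* is A2M protein that was transformed outside the animal, and an injected protein adds no RNA of its own to a library. Only reads that the authors assigned to human and not to mouse entered the tables, and reads of the host were not analysed here. Each tumour gave 1 library, and p-values measure the spread between these tumours. Fewer cells that transcribe a gene and less RNA per cell cannot be told apart in such bulk RNA.

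Proteins of this family share a large, multidomain fold, and in most of them a cysteine and a glutamine side chain are joined in an internal thioester bond. When a protease or another trigger opens the molecule, the bond becomes reactive and can tie the protein to a nearby surface or to the attacking protease. A2M is the abundant plasma inhibitor that traps proteases of every class in this way, and its transformed form is then taken up by the receptor LRP1. C3 is the central protein of complement, whose activated fragment attaches to cell surfaces by its thioester, while C5 starts the membrane attack complex and has lost the thioester. CD109 is held on the cell membrane by a lipid anchor and is known as a co-receptor that dampens TGF-beta signalling.

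The codons around the thioester show how alike the members are at the site that gives the family its name. The runs below are the coding strand, 5′ to 3′, with the 5 codons of the motif in capitals and 15 bases on each side. They were read from GENCODE transcripts on GRCh37, the build of the deposited files (hg19), and each matched the genome base by base.
A2M (exon 24, chr12:9232326-9232370, minus strand): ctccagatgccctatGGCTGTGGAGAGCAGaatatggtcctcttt
PZP (exon 24, chr12:9313001-9313045, minus strand): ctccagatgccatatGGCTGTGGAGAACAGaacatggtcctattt
A2ML1 (exon 24, chr12:9009801-9009845, plus strand): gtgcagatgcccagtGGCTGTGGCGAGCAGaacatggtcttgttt
CD109 (exon 23, chr6:74502390-74502434, plus strand): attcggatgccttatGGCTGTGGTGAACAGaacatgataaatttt
CPAMD8 (exon 26, chr19:17036097-17036141, minus strand): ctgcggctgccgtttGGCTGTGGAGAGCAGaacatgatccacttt
C3 (exon 24, chr19:6694542-6694586, minus strand): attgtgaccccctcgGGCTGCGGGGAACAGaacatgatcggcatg
C5 (exon 24, chr9:123751955-123751999, minus strand): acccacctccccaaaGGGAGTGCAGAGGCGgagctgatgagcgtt
In A2M, PZP, A2ML1, CD109, CPAMD8 and C3 the capitals encode the same 5 residues, which include the cysteine and the glutamine of the bond, and each protein holds that motif 1 time. The capitals of C5 are the codons that align with those of C3, and they differ from the motif in 3 of 5 residues.

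Over the whole protein, A2M and PZP were the closest pair, with 73.2% identical residues over 1468 aligned ones. A2M and A2ML1 shared 41.8% of 1433 residues, CD109 and CPAMD8 35.6% of 1382, and C3 and C5 29.8% of 1613. The A2M gene lies on chromosome 12 of GRCh37 from 9220260 to 9268825, between A2ML1 (8975217 to 9039597) and PZP (9301436 to 9360991). C3 (6677715 to 6730573) and CPAMD8 (17003762 to 17137625) are both on chromosome 19, CD109 is on chromosome 6 from 74405508 to 74538040, and C5 is on chromosome 9 from 123695265 to 123837473. The library kit does not mark strand, so reads where a gene shares exons with a gene on the other strand cannot be assigned between them. Such shared exon bases were 174 of the 4610 in the A2M transcript (with A2M-AS1) and 18 of the 5983 in the CPAMD8 transcript (with ENSG00000268985). The transcripts of A2ML1, PZP, CD109, C3 and C5 shared none.

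The total per tumour was 16.96 M to 35.87 M reads counted on genes (M for 1000000). The limit of detection was set at 3 counts, which at this depth was worth 0.0836 to 0.177 RPM (reads per 1000000 counted reads) and covers counting error only. The tumours carried the markers of epithelial tumour cells, with all 5 of KRT8, KRT18, KRT19, EPCAM and CDH1 present and a sum of 1734 to 2599 RPM over the tumours. KLK3, which encodes the prostate-specific antigen, had 0 counts in all 11 tumours. Markers of other cell types were measured because such cells can also make complement proteins or A2M. In tumours grown from 1 human line in mice, cells of those types come from the host. Counts on these human genes therefore do not measure host cells, unless mouse reads were assigned to human. The 6 fibroblast markers summed to 319 to 665 RPM in PBS tumours and 320 to 922 RPM in A2M* tumours, mostly from COL1A1, while DCN, a defining fibroblast gene, had at most 3 counts. Whether reads of the mouse host were among those assigned to human was not tested. Of the 7 macrophage and leukocyte markers, 4 had a mean of at least 1 RPM, the sums were 11.3 to 13.6 RPM in PBS and 13.1 to 15.04 RPM in A2M* tumours, and AIF1 and CD163 had at most 3 counts. The 5 endothelial markers summed to 16.9 to 24.1 RPM in PBS and 15.8 to 23.7 RPM in A2M* tumours. The 6 liver and plasma protein genes summed to 201 to 268 RPM and 188 to 241 RPM, with SERPINA1 highest and TTR and HP at no more than 3 counts.

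Compared per length of transcript (RPKM, RPM divided by the exon length in kilobases), the PC-3 tumours transcribed the family at very unequal levels. By the lengths in the deposited RPKM, C3 was the highest member, at 25.3 ± 7.08 RPKM (SD, n = 11), and CPAMD8, a large secreted relative with complement-like domains, followed at 15.9 ± 3.24 RPKM (SD, n = 11). The membrane protein CD109 had 12.4 ± 1.73 RPKM (SD, n = 11). These 3 genes made up 95.6% to 98.6% of the RPKM summed over the 7 members in each tumour. C5 came next with 1.07 ± 0.379 RPKM (SD, n = 11), and A2ML1, an inhibitor known from the outer layers of skin, had 0.169 ± 0.0389 RPKM (SD, n = 11). A2M and PZP, its pregnancy-associated relative, were at the bottom with 0.00324 and 0.00314 RPKM.

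**Figure D1:**
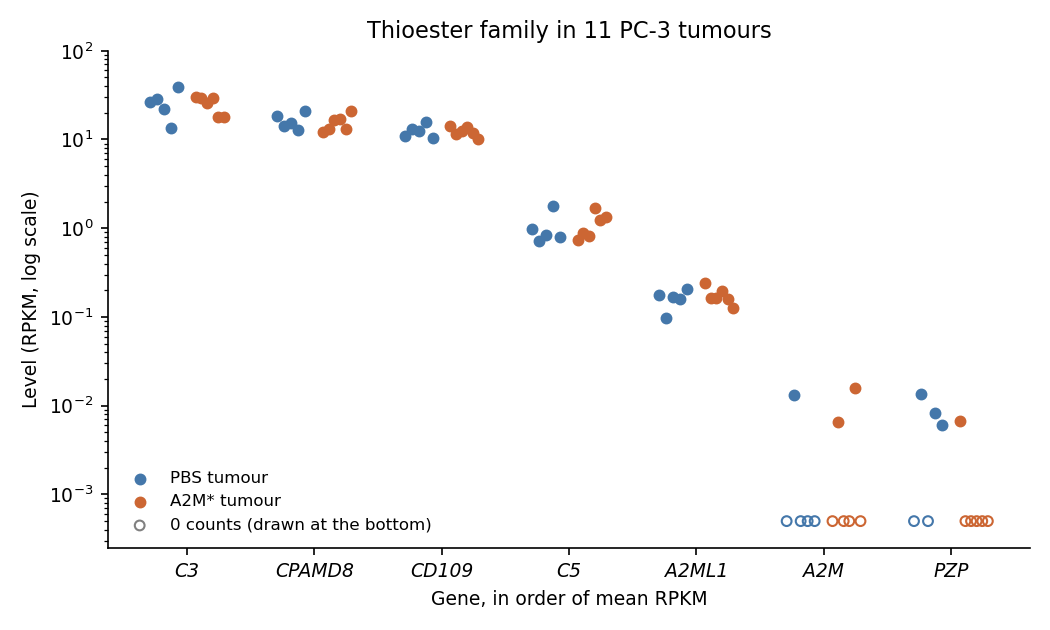
RPKM on a log axis for each of the 7 members in the 5 PBS tumours (blue) and the 6 A2M* tumours (orange), 1 point per tumour, with 0 counts drawn as open circles at the bottom. C3, CPAMD8 and CD109 lie close together between 10.04 and 38.6 RPKM, C5 and A2ML1 form separate steps below, and A2M and PZP have 0 counts in most tumours.

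The order of neighbours was tested on the difference of both genes within each tumour, by a two-sided exact sign-flip permutation test with Benjamini-Hochberg adjustment over the 6 neighbour pairs. C3 was above CPAMD8 in 10 of 11 tumours, by 9.42 ± 6.96 RPKM (SD, n = 11; exact test, adjusted p = 0.00439). CPAMD8 was above CD109 in 9 of 11 tumours, by 3.48 ± 4.67 RPKM (SD, n = 11; exact test, adjusted p = 0.0352). That second step was the less secure one: without PC3_tumor_123, PC3_tumor_125, PC3_tumor_127, PC3_tumor_129, PC3_tumor_130 or PC3_tumor_132 its adjusted p lay between 0.0586 and 0.0703 by the same exact test. The order of C3, CPAMD8 and CD109 also depended on the length by which RPM was divided. The deposited lengths were 0.975, 1.001 and 1.01 times those of 1 GENCODE transcript of C3, CPAMD8 and CD109, but 0.441, 0.587 and 0.936 times the length of all their GENCODE exons. With the length of all exons CD109 came first at 11.6 RPKM, before C3 at 11.2 and CPAMD8 at 9.34, and neither step passed the test (exact test, adjusted p = 0.795 and 0.135). With the transcript length the order was that of the deposited RPKM (exact test, adjusted p = 0.00439 and 0.048). The steps from CD109 to C5, from C5 to A2ML1 and from A2ML1 to A2M held in 11 of 11 tumours, each with an adjusted p of 0.00195 from the exact test. A2M and PZP could not be ranked, with a difference of 0.000107 RPKM (exact test, adjusted p = 0.938).

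**Figure D2:**
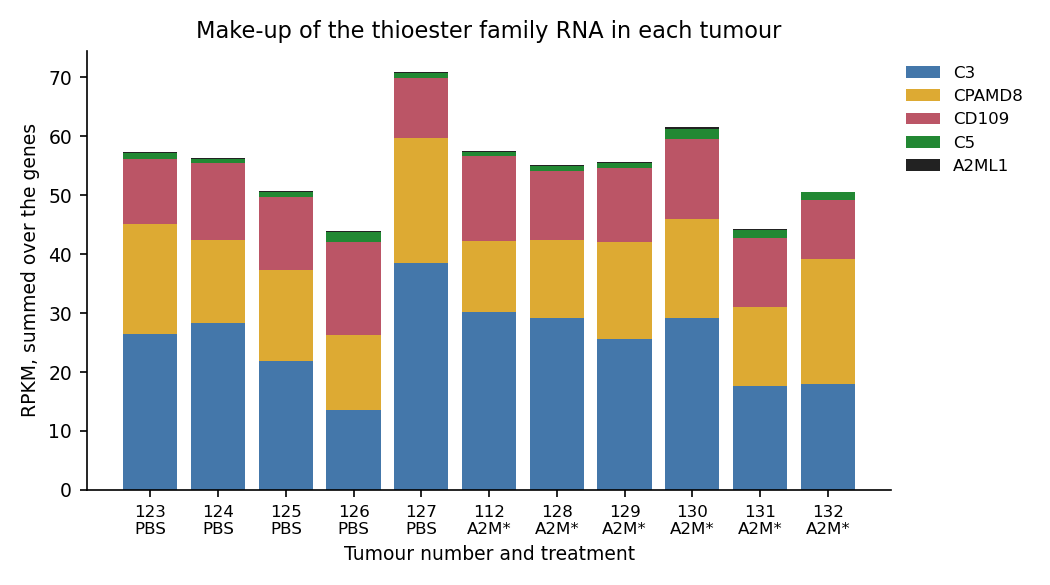
RPKM summed over the family in each tumour (bars, starting at 0), divided by gene, for the 5 PBS and 6 A2M* tumours. C3 is the largest part in 9 tumours, CD109 in PC3_tumor_126 and CPAMD8 in PC3_tumor_132, and the whole bar ranges from 44 to 71 RPKM.

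The make-up of the family in the deposited RPKM varied between tumours of the same group. The share of C3 ranged from 30.8% in PC3_tumor_126 to 54.4% in PC3_tumor_127, both of the PBS group, with a median of 46.3%. CPAMD8 took 20.9% to 41.8% and CD109 14.5% to 35.8%. The ratio of C3 to C5 in RPKM ranged from 7.68 to 48.2.

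A2M and PZP were close to absent as RNA. Counts on A2M were 0, 2, 0, 0 and 0 in the PBS tumours, and in the A2M* tumours they were 1, 0, 0, 2, 0 and 0. The 3 tumours with any count were thus spread over both groups, and no tumour exceeded the limit of 3 counts. Pooled over all tumours, 5 counts gave 0.0158 RPM (exact Poisson 95% interval 0.00514 to 0.0369). Group means were 0.0123 and 0.0174 RPM and gave p = 0.848 in a two-sided exact permutation test (unadjusted). Only 3 tumours had a count and the rest tied at 0, so no division of the tumours could give a p under 0.05. The test therefore cannot decide whether A2M differed between the groups. A2M-AS1, the gene on the opposite strand, had 18 to 78 counts in every tumour, and A2MP1, a pseudogene relative, had at most 3 (both were chosen after their values were seen).

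PZP had counts of 0, 2, 0, 1 and 1 in the PBS tumours, and of 0, 0, 0, 0, 0 and 1 in the A2M* tumours. Here 4 of the 5 counts were in the PBS group, but no tumour exceeded 3 counts, and the group means of 0.0256 and 0.00519 RPM gave an exact permutation p of 0.152. For both genes a difference between the groups was not detectable at this depth, and no fold is given.

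A2ML1 was the only one of the A2M-type inhibitors with counts in every tumour. It had 28, 17, 31, 22 and 40 counts in the PBS tumours and 29, 15, 27, 23, 15 and 42 counts in the A2M* tumours. As TMM-normalised CPM (counts per 1000000 counts, scaled by edgeR's TMM factors), these were 0.878 ± 0.214 (SD, n = 5) and 0.929 ± 0.222 (SD, n = 6). The groups overlapped nearly over their whole range, and PC3_tumor_112 was highest and PC3_tumor_124 lowest. The log2 fold change was 0.09 (standard error 0.21; 95% interval -0.37 to 0.55; adjusted p = 0.96, edgeR quasi-likelihood test).

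None of the 5 members tested passed the threshold of an adjusted p under 0.01, none had an unadjusted p under 0.05, and for none did the CPM of the groups not overlap. Over all 16630 genes tested, the first share was 0% (0 genes), the second 7.08% (1178 genes) and the third 0.71% (118 genes). DESeq2 called 1 gene of all at an adjusted p under 0.01 and 23 under 0.05, and the exact test of edgeR called 1 and 6, with no member among them. Of the 1178 genes, 591 were higher and 587 lower in A2M* tumours. With library size alone in place of TMM the split was 1022 to 308, with a median log2 fold change of 0.0419 over all genes. Under that scaling each of the 5 members kept its sign.

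**Figure D3:**
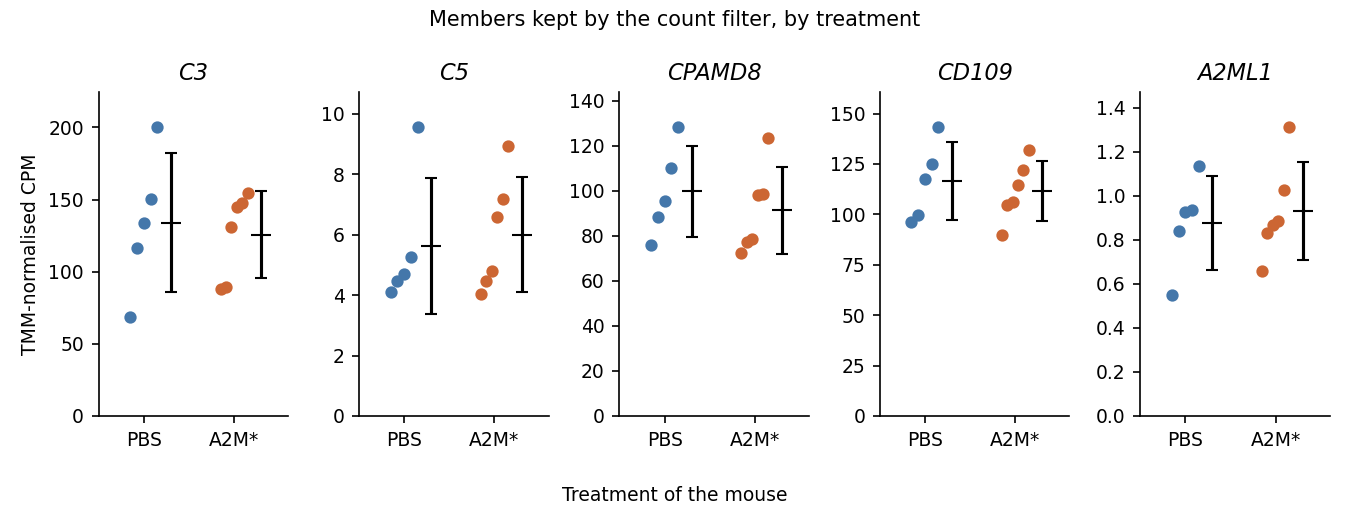
TMM-normalised CPM (axis from 0) of the 5 members kept by the count filter in PBS (blue, n = 5) and A2M* tumours (orange, n = 6), 1 point per tumour, with the mean and SD as black bars. The groups overlap for each of the 5 genes, and the highest tumour is a PBS tumour for C3, C5, CPAMD8 and CD109 and an A2M* tumour for A2ML1.

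CD109 had the narrowest spread of the 5 members tested, with a coefficient of variation of 14.3% over the 11 tumours. Its CPM was 99.9, 124.9, 117.7, 143.5 and 96.3 in the PBS tumours and 106.1, 114.7, 121.9, 104.8, 89.7 and 132.2 in the A2M* tumours. The highest values were in PC3_tumor_126 and PC3_tumor_112 and the lowest in PC3_tumor_132 and PC3_tumor_127, so each group held 1 of either kind. The means were 116 ± 19.3 (SD, n = 5) and 111.5 ± 14.8 CPM (SD, n = 6). The log2 fold change was -0.06 (standard error 0.11; 95% interval -0.31 to 0.18; adjusted p = 0.944, edgeR quasi-likelihood test), the narrowest interval among the members.

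CPAMD8 had CPM of 110.3, 88.4, 95.6, 75.9 and 128.6 in the PBS tumours and 78.6, 98.6, 98.0, 77.3, 123.7 and 72.5 in the A2M* tumours. PC3_tumor_127 and PC3_tumor_132, the lowest in CD109, were the highest in CPAMD8, while PC3_tumor_112 and PC3_tumor_126 were the lowest. The means were 99.8 ± 20.3 (SD, n = 5) and 91.5 ± 19.3 CPM (SD, n = 6). Its log2 fold change was -0.13 (standard error 0.15; 95% interval -0.45 to 0.20; adjusted p = 0.91, edgeR quasi-likelihood test).

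C3, the highest member by deposited RPKM, ranged 2.92-fold over the tumours. Its CPM was 133.9, 150.6, 116.2, 68.7 and 200.6 in the PBS tumours and 147.9, 130.7, 144.7, 87.7, 89.3 and 154.6 in the A2M* tumours. Both the highest and the lowest tumour, PC3_tumor_127 and PC3_tumor_126, had received PBS, and the A2M* tumours lay inside that range. The means were 134 ± 48.2 (SD, n = 5) and 125.8 ± 29.9 CPM (SD, n = 6), with a fitted difference of -0.09 on the log2 scale (standard error 0.23; 95% interval -0.58 to 0.40; adjusted p = 0.964, edgeR quasi-likelihood test). Without PC3_tumor_127 the log2 fold change was 0.10. The sum of fibroblast markers, mostly COL1A1, was 657 RPM in PC3_tumor_127 and 319 RPM in PC3_tumor_126. In the A2M* group it was 320 RPM in PC3_tumor_128 (C3 147.9 CPM), 797 RPM in PC3_tumor_131 (87.7) and 922 RPM in PC3_tumor_112 (154.6). A relation of C3 to this sum was not tested. The part of reads from the mouse host in the C3 level was not tested.

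C5 was less abundant than C3 and ranged 2.38-fold over the tumours. It had 76 to 251 counts per tumour, and its CPM was 5.27, 4.09, 4.71, 9.58 and 4.46 in the PBS tumours and 4.79, 4.49, 8.95, 6.60, 7.17 and 4.03 in the A2M* tumours. PC3_tumor_126 stood above the other 4 PBS tumours, and in the A2M* group PC3_tumor_130 was highest and PC3_tumor_112 lowest. The highest C5 and the lowest C3 were thus in the same tumour, PC3_tumor_126. The means were 5.62 ± 2.25 (SD, n = 5) and 6.01 ± 1.90 CPM (SD, n = 6), and the log2 fold change was 0.10 (standard error 0.25; 95% interval -0.43 to 0.64; adjusted p = 0.963, edgeR quasi-likelihood test). Without PC3_tumor_126 the log2 fold change was 0.37 and without PC3_tumor_130 it was -0.05, and the adjusted p stayed at 0.558 or above in each fit that left out 1 tumour.

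The spread between tumours of a group was expressed as edgeR's biological coefficient of variation, the variation left after counting noise. C5 had 28.1%, where the trend over genes of its abundance was 17.2%, and C3 had 26.3%, where the trend was 11.5%. CPAMD8 had 17.7% against a trend of 11.5%, and CD109 13.7% against 11.4%. A2ML1, at 17.5%, was below its trend of 20.4%. The median over all genes tested was 12.4%, so that both complement members were among the more variable genes, above 94.3% (C3) and 95.5% (C5) of those tested.

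No pair of members varied together beyond the adjusted threshold, and the strongest relations were negative. Over the 11 tumours, log2 CPM was compared for the 10 pairs of the 5 tested members by Pearson's r and Spearman's rho with 100000 permutations and Benjamini-Hochberg adjustment over the pairs. The most negative pairs were CD109 with CPAMD8 (r = -0.712, permutation p = 0.0157, adjusted p = 0.095; rho = -0.745, permutation p = 0.0114, adjusted p = 0.064) and C3 with C5 (r = -0.684, permutation p = 0.019, adjusted p = 0.095; rho = -0.736, permutation p = 0.0128, adjusted p = 0.064). Neither passed the adjustment. Without the 2 tumours farthest from the median of the first gene, r was -0.548 for CD109 with CPAMD8 (without PC3_tumor_126 and PC3_tumor_132) and -0.424 for C3 with C5 (without PC3_tumor_126 and PC3_tumor_131). After the mean of its own group was subtracted from each tumour, r over the 11 tumours was -0.776 for CD109 with CPAMD8 and -0.684 for C3 with C5. Leaving out 1 tumour changed both calls: without PC3_tumor_130 the C3 and C5 pair had r = -0.902 with a permutation adjusted p of 0.003, and without PC3_tumor_131 the CD109 and CPAMD8 pair had r = -0.822 with a permutation adjusted p of 0.043.

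**Figure D4:**
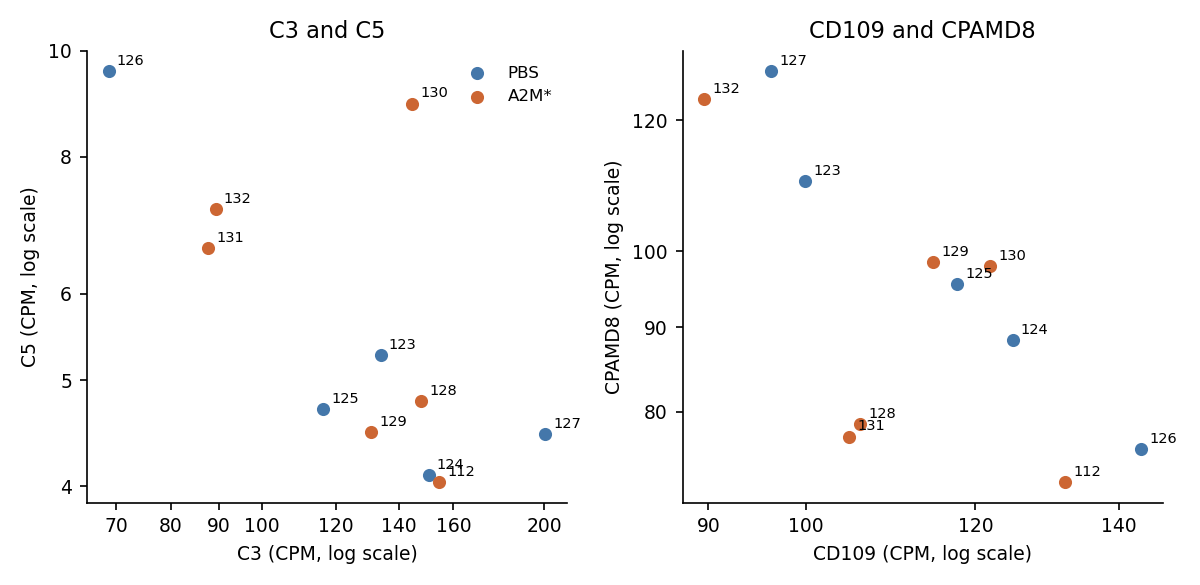
CPM on log axes of C3 against C5 (left) and of CD109 against CPAMD8 (right), 1 numbered point per tumour, PBS in blue and A2M* in orange. PC3_tumor_126 has the lowest C3 (68.7) and the highest C5 (9.58), PC3_tumor_127 and PC3_tumor_132 have the highest CPAMD8 and the lowest CD109, and both colours are mixed along each trend.

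The genes whose log2 CPM was most like that of each member over the 11 tumours were searched, as a description, among the 14963 or 14964 genes whose mean log2 CPM was 0 or higher. For CD109 they were ADAM9, a membrane protease (r = 0.957), LHFPL2 (r = 0.948) and PTPRK, a receptor phosphatase (r = 0.947), and 255 genes had r above 0.8. For CPAMD8 they were the potassium channel gene KCNK5 (r = 0.944), the growth factor receptor gene FGFR3 (r = 0.932) and the homeobox gene HOXA11 (r = 0.906), with 154 genes above 0.8. C5 was most like KIAA1468 (r = 0.956), ZNF638 (r = 0.938) and ZRANB2 (r = 0.927), with 160 above 0.8. C3 had fewer genes like it, 30 above 0.8, led by TMEM185B (r = 0.919), CCDC97 (r = 0.878) and ANXA9 (r = 0.870). For A2ML1 the first was LOC101928674 (r = 0.831), the single gene above 0.8, then SERTAD4 (r = 0.781) and WARS2 (r = 0.753), with counts so low that counting noise limits r. No other member was among these genes.

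Among the reads assigned to human, complement, the system in which C3 and C5 act, was represented by some of its parts and not by others. The share of all 16630 genes tested with an unadjusted p under 0.05 was 7.08%, to be set beside the counts of each list below. Of 17 genes that start the classical and lectin pathways, 6 were tested. The proteases of the C1 complex and their relative were well measured, at 16.4 ± 3.81 RPKM for C1R, 11.3 ± 3.38 for C1S and 15.04 ± 2.22 for C1RL (SD, n = 11). C1QA, C1QB and C1QC, the recognition subunits made mainly by macrophages, had 0 counts in all 11 tumours. MASP2, a lectin pathway protease, was the 1 gene of this list with an unadjusted p under 0.05, at 5.50 ± 0.612 CPM (SD, n = 5) in PBS and 6.76 ± 0.797 CPM (SD, n = 6) in A2M* tumours (log2 fold change 0.30 with standard error 0.11, unadjusted p = 0.0179, adjusted p = 0.642, edgeR quasi-likelihood test).

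C4A and C4B, the remaining human genes of the complement thioester proteins, had 0 counts in all 11 tumours. Their proteins are identical in 99.4% of 1744 residues, and the run around their thioester codons in exon 24 is the same in both.
C4A (chr6:31963172-31963216, plus strand): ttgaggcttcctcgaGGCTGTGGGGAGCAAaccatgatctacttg
Reads from stretches that the copies share map to both places, and the handling of reads that map more than 1 time is not given in the sources used here, so a count of 0 does not show that the genes were silent. C2 and CFB, the proteases that pair with C4 and C3, lie in the same region of chromosome 6. The length by which their RPKM was divided was 3.77 and 3.35 times the exon length in GENCODE, so they are given in CPM: C2 had 2.04 ± 0.205 and CFB 43.1 ± 9.99 in PBS tumours (SD, n = 5), and 2.004 ± 0.458 and 39.7 ± 7.59 in A2M* tumours (SD, n = 6). Why the lengths differ was not tested, and neither was whether reads that map more than 1 time changed these counts.

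The alternative pathway list held CFB, CFD and CFP, and 0 of 3 had an unadjusted p under 0.05. CFD, factor D, which cleaves factor B, varied most of the 3, from 2.35 CPM in PC3_tumor_130 to 16.5 CPM in PC3_tumor_127, and its group difference was -0.42 on the log2 scale (unadjusted p = 0.337, edgeR; standard error 0.43). Of the 6 terminal components that follow C5, 3 were tested (C6, C7 and C8G), none with a p under 0.05, and C8A and C8B had 0 counts in all tumours. Among 17 regulators, which protect cells or limit activation, 9 were tested and 0 had a p under 0.05. The membrane regulators CD46 and CD59 were the most abundant genes of the complement lists per length: CD46 had 117 ± 14.5 RPKM, CD59, which blocks the membrane attack complex, 51.0 ± 3.39, and the related CD55 had 16.2 ± 2.29 (SD, n = 11). All 3 had log2 fold changes between -0.12 and -0.05. Of 9 receptors of C3 and C5 fragments 7 were tested and 0 had a p under 0.05. ITGB2, the chain shared by the integrin receptors of C3 fragments, was the most abundant at 21.99 ± 3.19 RPKM (SD, n = 11). Its partner chains ITGAM and ITGAX had 0.346 ± 0.0900 and 0.366 ± 0.0749 RPKM (SD, n = 11). C3AR1, the receptor of the C3 fragment C3a, had 1.14 ± 0.181 CPM in PBS (SD, n = 5) and 1.57 ± 0.828 CPM in A2M* tumours (SD, n = 6), and C5AR1, the receptor of C5a, had 2.82 ± 0.565 and 2.86 ± 0.928 CPM.

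Over the 28 complement genes tested beside the members, PC3_tumor_132 and PC3_tumor_127 held the highest CPM for 7 and 6 genes and the lowest for 0. PC3_tumor_131 and PC3_tumor_126 held the lowest for 7 and 6 genes and the highest for 4 and 3. Each of these pairs consists of 1 A2M* and 1 PBS tumour. PC3_tumor_124 also held the lowest for 0 genes, and the highest for 1. How often each tumour was highest or lowest over all genes tested was not counted. C1R, C1S, CFB and CFD were all highest in PC3_tumor_127, as C3 was.

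The 3 genes for the uptake of A2M* were all tested. LRP1, its endocytic receptor, had 595 ± 139 CPM in PBS (SD, n = 5) and 582 ± 101 CPM in A2M* tumours (SD, n = 6), a difference of -0.03 on the log2 scale (standard error 0.15; adjusted p = 0.98, edgeR) that was 0.02 with library size alone. LRPAP1, the chaperone of LRP1, had 98.0 ± 8.58 and 93.1 ± 8.53 CPM. HSPA5, the endoplasmic reticulum chaperone that can also bind A2M* at the cell surface, had 1222, 1482, 1245, 1432 and 1235 CPM in the PBS tumours and 1732, 1534, 1584, 2269, 1369 and 1457 CPM in the A2M* tumours. The groups overlapped in PC3_tumor_132 and PC3_tumor_112, and the difference of 0.33 on the log2 scale (unadjusted p = 0.0179 and adjusted p = 0.642, edgeR; standard error 0.12) did not pass the threshold. With 1 tumour left out, the HSPA5 difference ranged from 0.22 (without PC3_tumor_131) to 0.37 (without PC3_tumor_132).

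Of the 9 genes of TGF-beta signalling, in which CD109 acts, all were tested. An unadjusted p under 0.05 was found for 3 of them, beside 7.08% of all genes tested. None had an adjusted p under 0.01, beside 0% of all genes tested. TGFBR1, the signalling receptor that CD109 binds together with TGF-beta, had 26.6, 32.0, 37.4, 34.7 and 32.5 CPM in the PBS tumours and 27.1, 25.2, 25.8, 22.4, 24.1 and 27.6 CPM in the A2M* tumours. Apart from PBS PC3_tumor_123, the PBS tumours were above all A2M* tumours (log2 fold change -0.37, standard error 0.09, unadjusted p = 0.00111, adjusted p = 0.599, edgeR quasi-likelihood test). The adjusted p of TGFBR1 depended on the test. It was 0.0744 by DESeq2, 0.172 by edgeR's exact test and 0.736 by the quasi-likelihood test with no count filter, all above 0.01. TGFBR3, the co-receptor betaglycan, had 1.599 to 2.33 CPM in PBS and 2.38 to 3.95 CPM in A2M* tumours, so that the groups did not overlap (log2 fold change 0.52, standard error 0.15, unadjusted p = 0.00412, adjusted p = 0.599, edgeR). The groups did not overlap for 0.71% of all genes tested (118 genes). The ligand TGFB3 had 31.4 ± 2.01 CPM in PBS (SD, n = 5) and 34.6 ± 1.75 CPM in A2M* tumours (SD, n = 6), with an unadjusted p of 0.0494 (edgeR quasi-likelihood test). That p was 0.0514 with RLE scaling, 0.0712 with no count filter and 0.0783 by edgeR's exact test, and 0.036 to 0.119 in the edgeR fits that left out 1 tumour. The adjusted p of TGFB3 was 0.701 by the edgeR quasi-likelihood test. Over the 6 other settings of the fit it ran from 0.532 (library size only) to 0.824 (edgeR's exact test). TGFB1, TGFB2, TGFBR2, SMAD7, SMURF2 and ENG had log2 fold changes between -0.18 and 0.11.

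In total 5 of the 40 pathway genes tested, out of 64 listed, had an unadjusted p under 0.05, beside 7.08% of all genes, and 4 of 40 with RLE scaling or edgeR's exact test. The median log2 fold change over the 40 was -0.005, beside -0.002 over all genes.

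**Figure D5:**
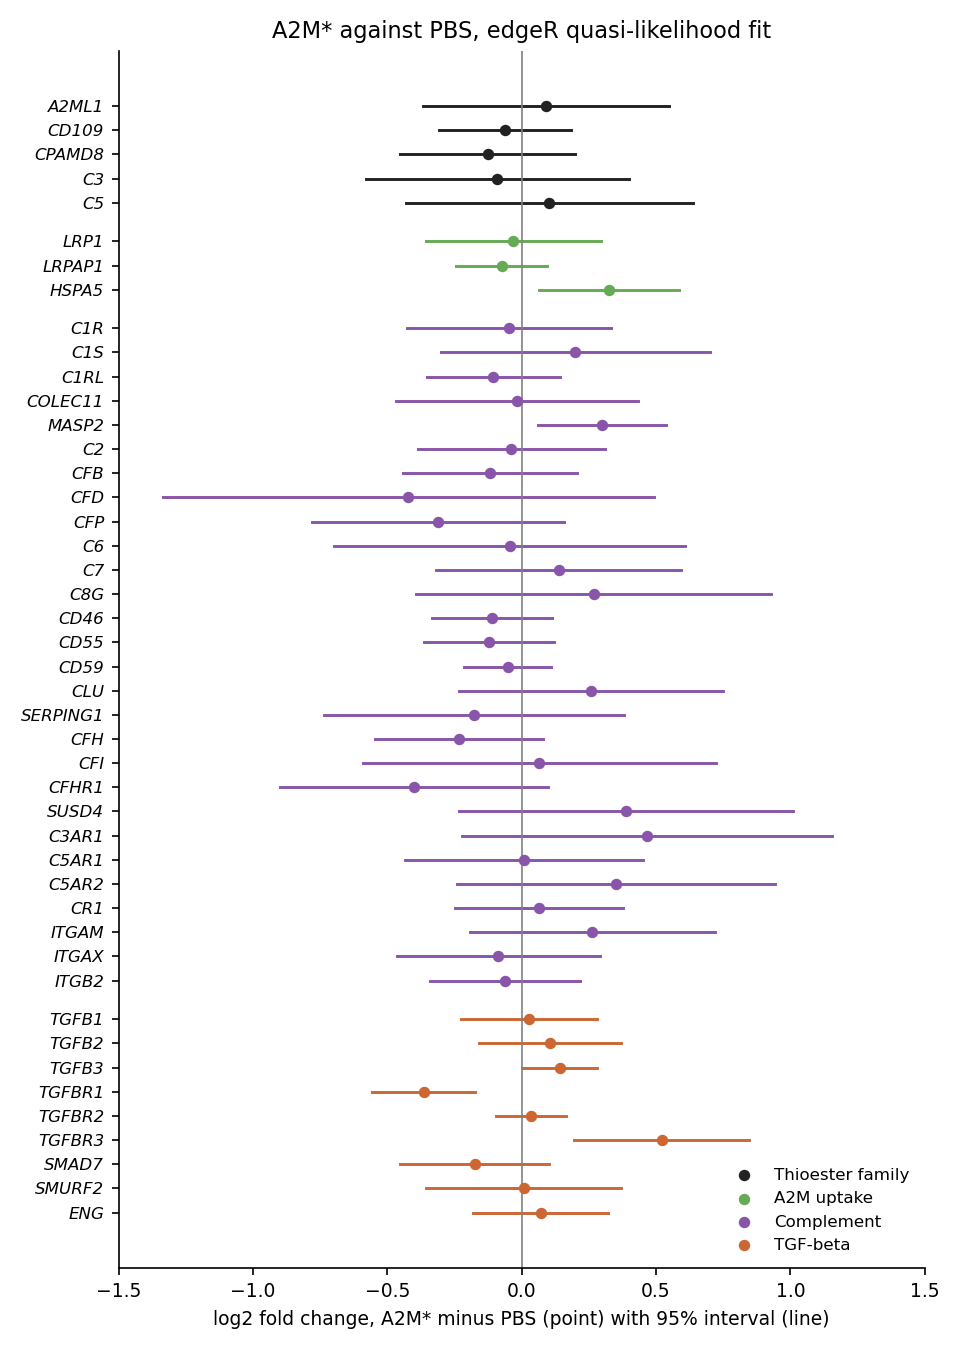
Log2 fold change of A2M* against PBS (points) with its 95% interval (lines) from the edgeR fit for the 5 members and the 40 pathway genes tested, coloured by list, on a linear axis with 0 marked. The intervals of all 5 members span 0, and those of HSPA5, MASP2, TGFB3, TGFBR1 and TGFBR3 do not.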

How the data were processed

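The authors prepared libraries with the TruSeq RNA kit v2, separated human from mouse single reads with xenome, aligned the former to hg19 (TopHat2) and assigned them to RefSeq genes (featureCounts); bcl2fastq 1.8.4 is in the submitters' processing notes, and the strand and multi-mapping settings are not given in the sources used here. They deposited raw counts without normalization, RPM (each count relative to the tumour's total) and RPKM (RPM divided by an exon length per gene). No deposited value column was left unassigned to a tumour.

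Samples were grouped by labelled treatment, with no covariate. Counts were filtered with filterByExpr, scaled by TMM and compared over the whole table by edgeR 4.0.16 quasi-likelihood testing (R 4.3.3) and Benjamini-Hochberg adjustment over the 16630 genes kept, at a threshold of 0.01. Intervals are 95%. The procedure was tested on simulated data. A2M and PZP were compared by exact permutation of RPM (462 labelings), neighbours in level by exact sign flips of RPKM within tumours, and pairs of members by permutation of log2 CPM (TMM, prior count 2; 100000 permutations, 20000 in the alternatives). Alternatives were RLE scaling or unscaled library sizes, filters (none, or a minimum of 10 counts in each tumour), DESeq2 1.42.0, edgeR's exact test, other scales of RPKM (pseudocount 0.1), GENCODE lengths and leaving out each tumour. Positions and coding sequences are from GENCODE on GRCh37, aligned with Biopython 1.88.

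The members and gene lists were chosen with earlier results of these data known. Genes named were the members, C4A and C4B, list genes with a mean of at least 1 RPM or the smallest p or largest change of their list, and the 3 genes most like each member in log2 CPM; list genes at 0 or low counts, and A2M-AS1 and A2MP1, are named beside them.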

Additional observations from a re-analysis of the deposited data

Results flagged for a closer look

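C5 stood at 9.58 CPM in PBS PC3_tumor_126, where the other 4 PBS tumours had 4.09 to 5.27 CPM, a gap of 78.5% of the group's range; C5 lies opposite CNTRL, with no shared exon bases in the C5 transcript, and CNTRL was at 20.4 CPM in PC3_tumor_126 and 13.3 to 19.0 CPM in the other tumours. CNTRL was picked once its values had been seen. The ratio of CPAMD8 to CD109 in RPKM was 2.11 in A2M* PC3_tumor_132, where the other 5 A2M* tumours had 0.839 to 1.31. Such a gap is found by chance in about 1 of 20 groups, and 18 groups of values were searched.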

How the results depend on the processing

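No paired analysis was possible because the groups share no tumour numbers. Under 6 other settings of the fit (RLE, library size only, no filter, at least 10 counts, DESeq2, edgeR's exact test) and with each tumour left out, 0 of the members had an adjusted p under 0.01 or an unadjusted p under 0.05. Genes of all those tested with an adjusted p under 0.01 numbered 1 by DESeq2 and 1 by edgeR's exact test, where the quasi-likelihood test gave 0. With 1 tumour left out, genes with an unadjusted p under 0.05 numbered 682 (without PC3_tumor_125) to 1684, and 766 without PC3_tumor_131; pathway genes numbered 4 to 7. The log2 fold change of members changed sign for A2ML1 (-0.0396 without PC3_tumor_124 and -0.0432 without PC3_tumor_112, up to 0.206), CD109 (0.0240 without PC3_tumor_126, down to -0.123), C3 (0.101 without PC3_tumor_127, down to -0.256) and C5 (-0.0460 without PC3_tumor_130, up to 0.374 without PC3_tumor_126), and CPAMD8 stayed between -0.233 and -0.0187. LRP1 changed sign with library size only (0.0158) and ranged from -0.108 to 0.0647 with 1 tumour left out. The difference in A2M was -0.00632 RPM without PC3_tumor_131, up to 0.0174 without PC3_tumor_124. The number of neighbour pairs that differed in RPKM was 5, or 4 to 5 with 1 tumour left out. The following alternatives were chosen after seeing the data. By the length of all GENCODE exons 3 neighbour pairs differed, and by that of 1 GENCODE transcript 5. For the pathway genes RLE, edgeR's exact test and the minimum of 10 counts gave 4, 4 and 5 with an unadjusted p under 0.05. For pairs of members, with library size only 0 pairs passed, and with 1 tumour left out 0 to 1 passed (1 without PC3_tumor_130 or PC3_tumor_131), where r of C3 with C5 ranged from -0.902 to -0.501 and that of CD109 with CPAMD8 from -0.822 to -0.619. What caused these changes was not tested. A2M and PZP had at most 2 counts per tumour, under the limit of 3 counts.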
